A study of Mus musculus with 14 samples.

Results

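A set of 9 genes that mark astrocytes was followed through cultures of mouse cortical neurons. They were chosen by symbol, with earlier results of these data known: Gfap, Vim, Aqp4, Gja1, Aldh1l1, Aldoc, Fabp7, S100b and Sox9. They are 9 of the 45802 features in the deposited table, and all 9 had a value in every library and passed the filter on low values, with 10877 genes tested in all. The cultures were wild-type C57BL/6 primary cortical neurons, kept in serum-free Neurobasal medium with B-27 from the third day after plating and treated for 1 h at day 12 in vitro. Ribosome-depleted total RNA was sequenced in 14 libraries, and the authors' quantile-normalised log2 signals were analysed.

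Control cultures were given 1% DMSO, and their 2 libraries are numbered 2 and 3. Each of the other 4 groups had 3 libraries. The bicuculline group received 20 µM of this GABA-A receptor blocker, which raises network activity. The NMP peptide group received peptides derived from the neuronal membrane proteasome, at 4% by volume. The PK-cleaved group received 4% of the same kind of peptides after cleavage with proteinase K. The last group received 4% NMP peptides plus 100 µM of APV, which blocks NMDA receptors. A group given APV without peptides was not analysed here. A DMSO content is given for the control group only. The series states biological replicates but not whether cultures, litters or RNA were repeated, and p-values measure no more than the spread between libraries. The labels give the cell type as cortical neurons and name no step that removes glia. Since RNA was taken from whole cultures, fewer cells of a type and less RNA per cell cannot be told apart.

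Astrocytes are the glia that take up transmitter, buffer potassium, move water and couple to each other through gap junctions, and they arise late in cortical development from radial glia. Some genes of the set are shared with those precursors: Vim, which encodes an intermediate filament, Fabp7 and Sox9 are active in radial glia and astrocytes. Gfap is the filament gene best known for its increase in reactive astrocytes, and in mouse cortex it is low in many resting astrocytes that express Aldh1l1, Aldoc or Gja1.

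Positions are RefSeq coordinates of GRCm38.p6. Gfap is at chr11:102887336-102897200 on the minus strand and Vim at chr2:13574311-13582826 on the plus strand. Gja1 is at chr10:56377300-56390419, also on the plus strand. Aldh1l1 is at chr6:90550768-90599171 and Aldoc at chr11:78323073-78327781, both on the plus strand. Fabp7 is at chr10:57784923-57788450, S100b at chr10:76253836-76261319 and Sox9 at chr11:112782210-112787757, all on the plus strand. Signals are for whole genes. Exons of Aldh1l1 overlap those of the non-coding genes Gm45901 on the same strand and Gm15756 on the opposite one, so its reads could be shared with them. No exon of another gene overlaps the other 8 members.

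RefSeq promoters of this build were matched for 7 of the 9 members, all but Sox9 and Aqp4, as the 250 bases before the transcription start. Those of 3 members are shown because they belong to the members with the widest and the narrowest range over libraries, as described below. Each reads 5′ to 3′ on the strand of the gene. Capitals mark matches, on either strand, to a TATA box (TATAAA), a STAT motif (TTCNNNGAA) or the core of a nuclear factor I (NFI) site (TTGGC, or GCCAA on the other strand). The first region is chr11:102897201-102897450 on the minus strand, the second chr10:76253586-76253835 on the plus strand and the third chr2:13574061-13574310 on the plus strand.
Gfap: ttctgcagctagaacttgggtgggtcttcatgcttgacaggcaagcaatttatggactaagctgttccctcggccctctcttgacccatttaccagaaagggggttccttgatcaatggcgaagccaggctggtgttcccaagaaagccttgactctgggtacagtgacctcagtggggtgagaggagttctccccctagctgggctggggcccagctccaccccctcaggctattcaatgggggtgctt
S100b: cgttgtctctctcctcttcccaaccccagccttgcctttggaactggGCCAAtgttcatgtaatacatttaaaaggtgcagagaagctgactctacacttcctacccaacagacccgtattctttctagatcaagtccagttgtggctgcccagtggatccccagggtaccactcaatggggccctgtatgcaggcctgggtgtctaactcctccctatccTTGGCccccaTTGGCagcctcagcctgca
Vim: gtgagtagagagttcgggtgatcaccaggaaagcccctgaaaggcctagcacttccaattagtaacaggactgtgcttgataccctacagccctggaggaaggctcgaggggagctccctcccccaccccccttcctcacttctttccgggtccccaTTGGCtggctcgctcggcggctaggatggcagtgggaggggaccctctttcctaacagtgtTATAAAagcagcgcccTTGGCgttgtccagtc

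The Gfap window held no match to the 3 motifs. The S100b window held 3 NFI cores, beginning 203, 29 and 19 bases before the start. In Vim the TATA box began 32 bases before the start, and NFI cores began at 93 and 16. Over 32851 RefSeq promoters, 12.4% of windows of this length held the TATA box, 7.02% the STAT motif and 41.5% the NFI core. A match is a description of letters, and no match says only that these letters are not in the window.

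The astrocyte genes spanned much of the range of levels in the cultures. Signals are on a scale per length, so levels can be compared between genes. The mean log2 signal over the 14 libraries was 9.67 for Fabp7, a carrier of fatty acids, which placed it above 99.9% of tested genes. Aldoc, the aldolase isozyme of brain, had a mean of 6.49 and Vim one of 6.40. Gja1, which encodes the gap junction protein connexin 43, had a mean of 4.97. Aldh1l1, an enzyme of folate metabolism, had a mean of 4.66. The transcription factor gene Sox9 had a mean of 3.79 and the water channel gene Aqp4 one of 3.22. Gfap followed at 3.09, and the calcium-binding protein gene S100b was lowest at 1.02, above 7.49% of tested genes. As antilogs of these means the levels ran from 817 for Fabp7 to 8.52 for Gfap and 2.02 for S100b.

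This order held in all 14 libraries for 6 of the 8 neighbouring pairs. The exceptions were Aldoc above Vim, seen in 10 of 14 libraries with a mean difference of 0.09 and an SD over libraries of 0.14, and Aqp4 above Gfap, seen in 9 of 14 with a mean difference of 0.13 and an SD of 0.79. In both pairs the mean difference was smaller than its SD over libraries.

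**Figure D1:**
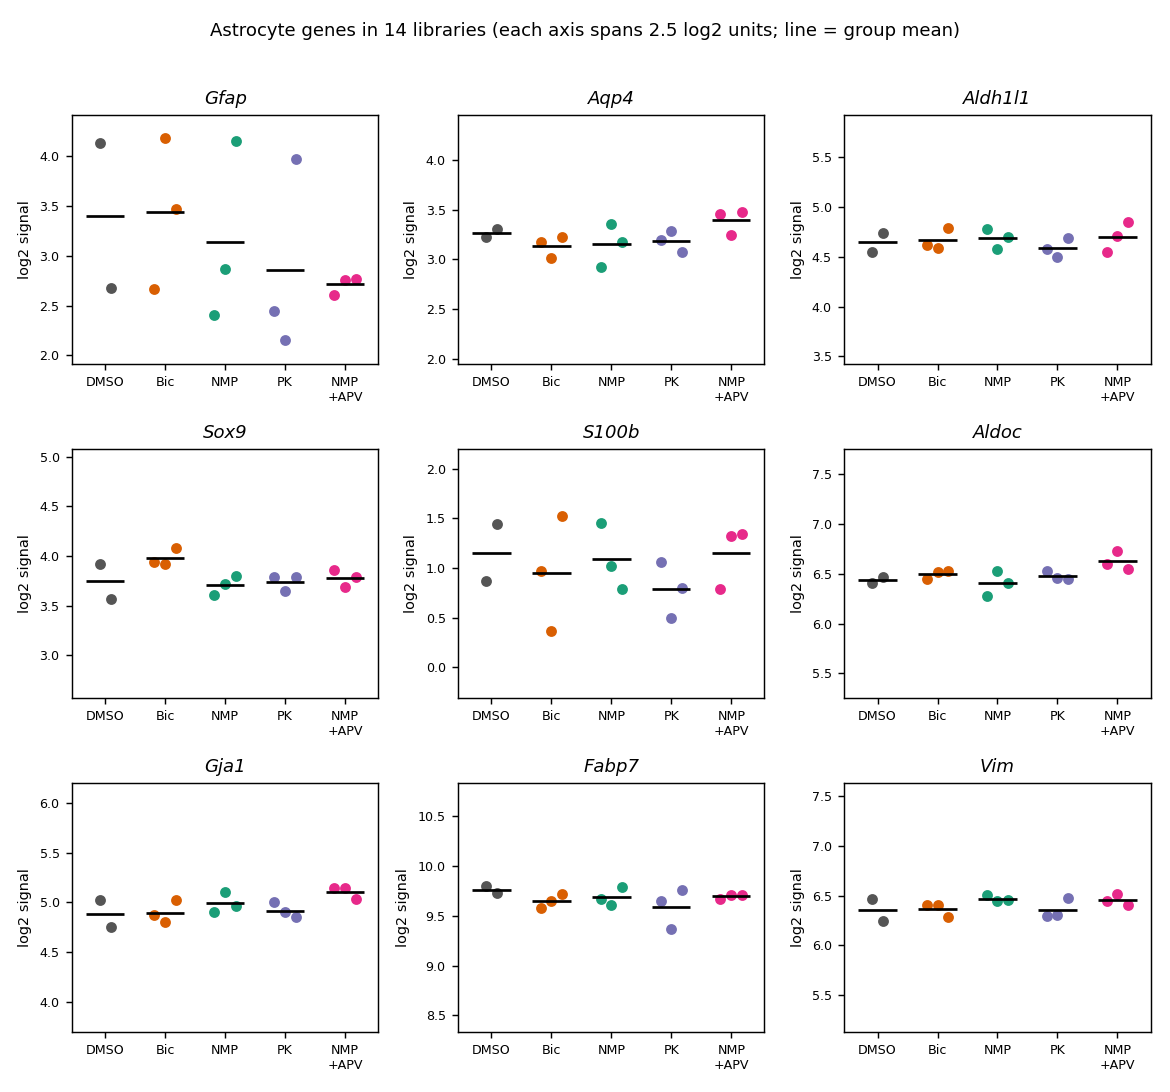
Log2 signal (vertical axes, all of the same length) of the 9 astrocyte genes in each of the 14 libraries, by group (horizontal axes: DMSO; Bic, bicuculline; NMP, NMP peptides; PK, PK-cleaved NMP peptides; NMP +APV, NMP peptides plus APV). Points are libraries and lines are group means. Gfap covers 2.15 to 4.18 with high and low libraries in 4 groups, while the 3 libraries with APV lie between 2.61 and 2.77.

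Gfap varied between replicates far more than the other astrocyte genes. In DMSO it was at 4.13 and 2.68, in bicuculline at 2.67, 4.18 and 3.47, and in NMP peptides at 2.41, 2.87 and 4.15. In PK-cleaved NMP peptides it was at 2.45, 2.15 and 3.97, and in NMP peptides plus APV at 2.61, 2.76 and 2.77. Each group but the last held 1 or 2 libraries high in Gfap beside low ones, and all groups overlapped. The range was 2.03, or 4.08-fold. Sorted, the libraries fell into separate ranges: 5 were at 3.47 or above and 9 at 2.87 or below, with a gap of 0.61 between them.

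The SD within groups (residual SD, 9 degrees of freedom) was 0.80 for Gfap, against a median of 0.127 over all tested genes, and 8 genes of 10877 had a larger one. Low levels vary more, so Gfap was also set beside the 1000 genes nearest to it in mean level. Its SD was 6.61 times their median, and 0 of the 1000 had a larger one. With 1 library left out at a time the SD stayed between 0.697 and 0.848.

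S100b was the other member with a wide spread, and it was also the lowest in level. It was at 0.87 and 1.44 in DMSO, at 0.97, 0.37 and 1.52 in bicuculline and at 1.45, 1.02 and 0.79 in NMP peptides. It was at 1.06, 0.50 and 0.80 in PK-cleaved NMP peptides and at 0.79, 1.32 and 1.34 in NMP peptides plus APV. The highest and the lowest library both belonged to bicuculline. Its SD within groups was 0.397, which was 2.16 times the median of the 1000 genes nearest in level, and 33 of those had a larger one.

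The other 7 members had SDs within groups between 0.0805 (Aldoc) and 0.142 (Aqp4), from the 15.5th to the 59.9th percentile of all tested genes. Their ranges over all libraries were 0.28 (Vim), 0.36 (Aldh1l1), 0.40 (Gja1), 0.43 (Fabp7), 0.45 (Aldoc), 0.51 (Sox9) and 0.56 (Aqp4), or 1.22-fold to 1.47-fold. Fabp7 rested most on 1 library, as its SD of 0.112 became 0.0669 without PK-cleaved replicate 2. Of each gene's variance over the 14 libraries, the share within groups was 83.1% for Gfap, 83.7% for S100b and 85.4% for Aldh1l1. It was lowest for Aldoc at 40.9% and Sox9 at 47.0%.

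**Figure D2:**
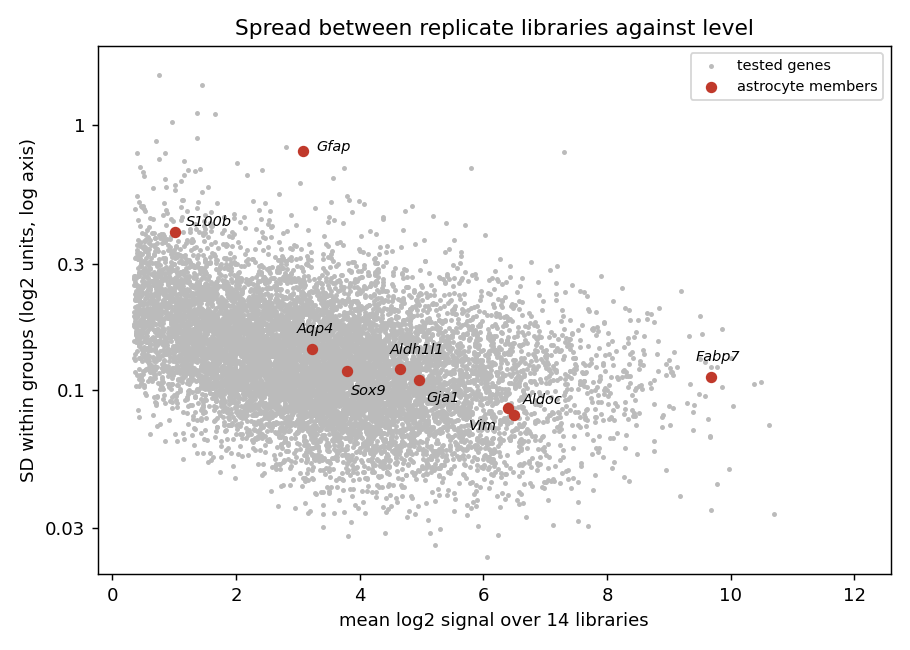
SD within groups (vertical axis, log2 units on a log scale) against mean log2 signal over 14 libraries (horizontal axis) for all tested genes (grey) and the 9 astrocyte genes (red). Gfap, at an SD of 0.80, stands above the 1000 genes nearest to it in level, S100b is high for its level, and the other 7 lie within the cloud; 2 genes with an SD under 0.02 are off the axis.

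None of the 9 genes passed the test in any of the 10 comparisons of groups. Comparisons were made with limma over all tested genes, and a gene was called at a Benjamini-Hochberg adjusted p under 0.05. The moderated F test over the 5 groups called 0 of 9 members (0 with an unadjusted p under 0.05) and 1.65% of all genes. Its smallest p was 0.0644, for Aldoc (adjusted p = 0.572). Of 90 tests of a member in a comparison, 10 had an unadjusted p under 0.05, in 4 members (Aldoc, Gja1, Aqp4 and Sox9), and the smallest adjusted p was 0.158. Of the 10, 7 involved the group with APV. An unadjusted p under 0.05 was also more common there among all tested genes, at 11.5% to 18.7% in the 4 comparisons with APV and 1.05% to 3.38% in the other 6. Comparisons that share a group are not independent of each other. Each of the 10 is given below with its gene.

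Against DMSO, bicuculline called 0 of 9 members (1 with an unadjusted p under 0.05) and 0.469% of all genes. NMP peptides called 0 of 9 (0 unadjusted) and 0.0184% of all genes. PK-cleaved NMP peptides called 0 of 9 (0 unadjusted) and 0% of all genes, of which 114 had an unadjusted p under 0.05. NMP peptides plus APV called 0 of 9 (2 unadjusted) and 0.625% of all genes. The median difference of the members from DMSO was 0.01, -0.04, -0.06 and 0.06 in these 4 groups, in the same order, and that of all tested genes was -0.03, -0.04, -0.04 and -0.05.

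Between the treated groups, NMP peptides against PK-cleaved NMP peptides called 0 of 9 members (0 unadjusted) and 0.0827% of all genes. NMP peptides against NMP peptides plus APV called 0 of 9 (2 unadjusted) and 1.43% of all genes. Bicuculline against NMP peptides called 0 of 9 (1 unadjusted) and 0.175%, and against PK-cleaved NMP peptides 0 of 9 (1 unadjusted) and 0.533%. Bicuculline against NMP peptides plus APV called 0 of 9 (2 unadjusted) and 3.33% of all genes. NMP peptides plus APV against PK-cleaved NMP peptides called 0 of 9 (1 unadjusted) and 1.39%. The same cultures responded at genes of neuronal activity: Npas4, an immediate-early transcription factor gene, was 4.33 higher on the log2 scale in bicuculline than in DMSO (20.1-fold, adjusted p = 5.68e-06), and 6 of 7 listed activity genes were called higher there. The highest of that list over all libraries were Egr1 at 6.03, Fos at 5.53 and Nr4a1 at 4.17.

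What size of change the data would show differs between members. The 95% interval of a difference from DMSO reached 0.168 to either side for Aldoc and 1.26 for Gfap, and for comparisons of 2 groups of 3 libraries 0.151 and 1.13. A missed threshold does not show that levels were alike, least of all for Gfap.

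**Figure D3:**
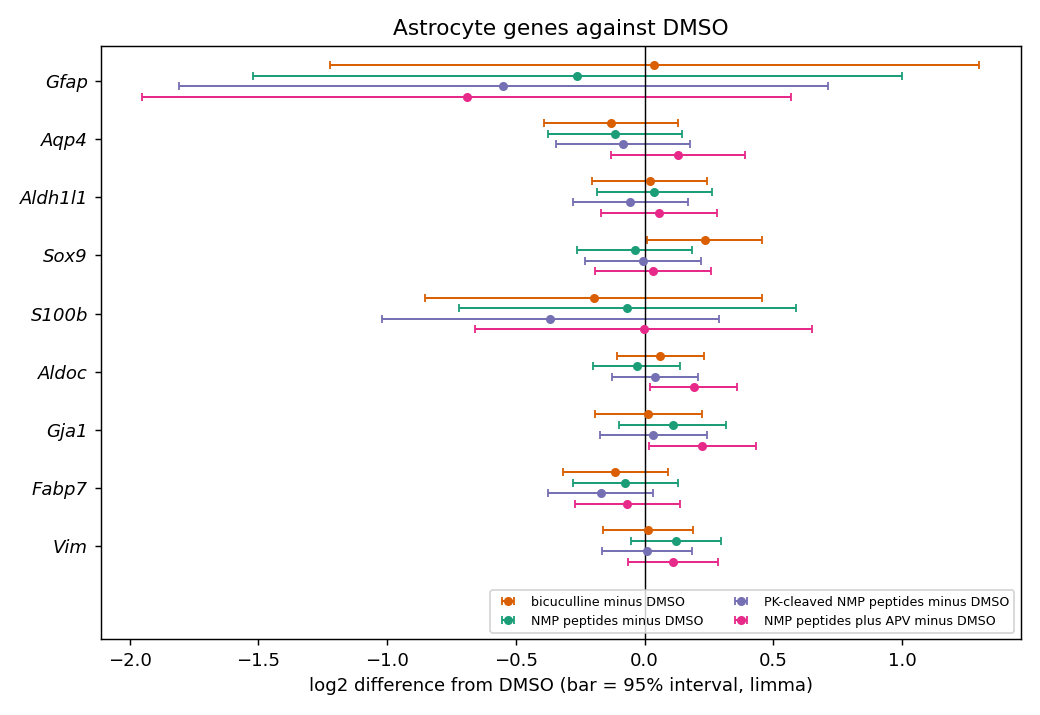
Log2 difference from DMSO (horizontal axis) of each astrocyte gene (vertical axis) in the 4 treated groups, with 95% intervals from limma as bars. The Gfap intervals reach 1.26 to either side and all hold 0; the intervals that leave out 0 are those of Sox9 in bicuculline and of Aldoc and Gja1 in NMP peptides plus APV, and none of these passed the adjusted test.

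Of the filament genes, Gfap had a group mean of 3.40 ± 1.03 in DMSO (SD, n = 2), 3.44 ± 0.76 in bicuculline, 3.14 ± 0.90 in NMP peptides, 2.86 ± 0.98 in PK-cleaved NMP peptides and 2.71 ± 0.09 in NMP peptides plus APV (n = 3 each). The difference from DMSO in bicuculline was 0.04 (95% interval -1.22 to 1.30) and in NMP peptides -0.26 (-1.52 to 1.00). In PK-cleaved NMP peptides it was -0.55 (-1.81 to 0.71) and in NMP peptides plus APV -0.69 (-1.95 to 0.57). Each has an SE of 0.588. All 4 rest on the 2 DMSO libraries, which themselves differ by 1.46. Without DMSO replicate 2 the last 3 became 0.47, 0.18 and 0.038, and without DMSO replicate 3 the first became -0.69. The smallest p of Gfap was in bicuculline against NMP peptides plus APV, with a difference of 0.73 (SE 0.53, adjusted p = 0.498), which became 0.36 without bicuculline replicate 2 and 1.11 without bicuculline replicate 1.

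Vim, the filament gene shared with radial glia, was at 6.46 and 6.24 in DMSO, at 6.40, 6.40 and 6.28 in bicuculline and at 6.51, 6.44 and 6.45 in NMP peptides. It was at 6.29, 6.30 and 6.48 in PK-cleaved NMP peptides and at 6.44, 6.52 and 6.40 in NMP peptides plus APV. Group means lay within 0.12 of each other, and the 5 libraries highest in Gfap ran from 6.28 to 6.48 in Vim, inside the 6.24 to 6.52 of the others. Its smallest p was in NMP peptides against PK-cleaved NMP peptides, at 0.145, with a difference of 0.11 that became 0.17 without PK-cleaved replicate 3.

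Aqp4 (chr18:15389394-15410982, minus strand) encodes the water channel of astrocyte endfeet. It was at 3.22 and 3.30 in DMSO, at 3.17, 3.01 and 3.22 in bicuculline and at 2.92, 3.36 and 3.17 in NMP peptides. It was at 3.19, 3.28 and 3.07 in PK-cleaved NMP peptides and at 3.46, 3.24 and 3.48 in NMP peptides plus APV. The libraries with APV lay above all those with bicuculline, by a narrow margin at the nearest pair, and overlapped the other groups. Bicuculline differed from NMP peptides plus APV by -0.26 (SE 0.11, adjusted p = 0.214) and NMP peptides from NMP peptides plus APV by -0.24 (SE 0.11, adjusted p = 0.296). The second ranged from -0.35 without NMP peptides replicate 2 to -0.13 without NMP peptides replicate 1.

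Gja1 was at 5.02 and 4.75 in DMSO, at 4.87, 4.80 and 5.02 in bicuculline and at 4.90, 5.11 and 4.96 in NMP peptides. It was at 5.00, 4.90 and 4.85 in PK-cleaved NMP peptides and at 5.15, 5.15 and 5.03 in NMP peptides plus APV. The libraries with APV lay above those of DMSO, bicuculline and PK-cleaved NMP peptides and overlapped those of NMP peptides. NMP peptides plus APV differed from DMSO by 0.22 (SE 0.10, adjusted p = 0.406) and from PK-cleaved NMP peptides by 0.19 (SE 0.09, adjusted p = 0.309), and bicuculline differed from NMP peptides plus APV by -0.21 (SE 0.09, adjusted p = 0.213). The difference from DMSO became 0.36 without DMSO replicate 2 and 0.09 without DMSO replicate 3.

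Among the enzymes, Aldoc was at 6.41 and 6.47 in DMSO, at 6.45, 6.52 and 6.53 in bicuculline and at 6.28, 6.53 and 6.41 in NMP peptides. It was at 6.53, 6.46 and 6.45 in PK-cleaved NMP peptides and at 6.60, 6.73 and 6.55 in NMP peptides plus APV. All 3 libraries with APV lay above the other 11. NMP peptides differed from NMP peptides plus APV by -0.22 (SE 0.07, 95% interval -0.37 to -0.07, adjusted p = 0.158), or 0.858 times the level. NMP peptides plus APV differed from DMSO by 0.19 (SE 0.08, adjusted p = 0.373).

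Aldh1l1 was at 4.55 and 4.74 in DMSO, at 4.62, 4.59 and 4.79 in bicuculline and at 4.78, 4.58 and 4.70 in NMP peptides. It was at 4.58, 4.50 and 4.69 in PK-cleaved NMP peptides and at 4.55, 4.71 and 4.85 in NMP peptides plus APV. The groups overlapped throughout, and the smallest p was 0.251, in NMP peptides plus APV against PK-cleaved NMP peptides (difference 0.11, SE 0.09, adjusted p = 0.593), which became 0.04 without APV replicate 3 and 0.19 without APV replicate 1.

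Fabp7 was at 9.80 and 9.73 in DMSO, at 9.58, 9.65 and 9.72 in bicuculline and at 9.67, 9.61 and 9.79 in NMP peptides. It was at 9.65, 9.37 and 9.76 in PK-cleaved NMP peptides and at 9.67, 9.71 and 9.71 in NMP peptides plus APV. The DMSO libraries lay just above those of bicuculline and of NMP peptides plus APV. The smallest p was 0.0940, for PK-cleaved NMP peptides against DMSO (difference -0.17, SE 0.10, adjusted p = 1.000), and the difference became -0.06 without PK-cleaved replicate 2 and -0.26 without PK-cleaved replicate 3. For S100b the smallest p was 0.204, for NMP peptides plus APV against PK-cleaved NMP peptides (difference 0.36, or 0.22 without PK-cleaved replicate 2 and 0.54 without APV replicate 1).

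Sox9 is the transcription factor that starts and keeps glial identity. It was at 3.92 and 3.57 in DMSO, at 3.94, 3.92 and 4.08 in bicuculline and at 3.61, 3.72 and 3.80 in NMP peptides. It was at 3.79, 3.65 and 3.79 in PK-cleaved NMP peptides and at 3.86, 3.69 and 3.79 in NMP peptides plus APV. The bicuculline libraries lay above those of the 3 peptide groups and at about the level of the higher DMSO library or above it. Bicuculline differed from NMP peptides by 0.27 (SE 0.09, adjusted p = 1.000), from PK-cleaved NMP peptides by 0.24 (SE 0.09, adjusted p = 1.000) and from DMSO by 0.23 (SE 0.10, adjusted p = 0.996). The last became 0.41 without DMSO replicate 2 and 0.06 without DMSO replicate 3.

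Groups whose libraries do not overlap were common among all genes, so the members' counts are given beside that background. In bicuculline against DMSO 2 of 9 members did not overlap (17.8% of all genes), in NMP peptides against DMSO 0 (17.4%), in PK-cleaved NMP peptides against DMSO 0 (11% of all genes) and in NMP peptides plus APV against DMSO 3 (29.8%). In NMP peptides against PK-cleaved NMP peptides 0 of 9 did not overlap (5.21%), against NMP peptides plus APV 1 (21.8%). For bicuculline the counts were 2 against NMP peptides (4.70%), 1 against PK-cleaved NMP peptides (6.62%) and 5 against NMP peptides plus APV (25.6%), and for NMP peptides plus APV against PK-cleaved NMP peptides 2 (20.2%).

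Whether astrocyte genes vary together over libraries was asked with Pearson's r, Spearman's rho and 100000 permutations for all 36 pairs. The r values ran from -0.35 to 0.77 with a median of 0.04, and 0 of 36 pairs passed the adjustment for r or for rho. The closest was Aldh1l1 with S100b, at r = 0.77 (permutation p = 0.0017, adjusted p = 0.0616) and rho = 0.72 (adjusted p = 0.197). Without the 2 libraries farthest from the median of Aldh1l1 its r was 0.71, and with group means removed it was 0.75. Aldoc, Gja1 and Aqp4 had r of 0.57 (Aldoc with Gja1), 0.56 (Aqp4 with Aldoc) and 0.54 (Aqp4 with Gja1) and did not pass. With group means removed these 3 were lower, at 0.47, 0.34 and 0.39 in the same order. The remaining pair with an unadjusted p under 0.05 was Gfap with Fabp7. Its r over all libraries was 0.62 (permutation p = 0.0093, adjusted p = 0.167) and spans the gap in Gfap. With group means removed it was 0.71. Because the values of Gfap fall into separate ranges, r was also taken over the 9 lower libraries alone, where none of 8 relations passed. The highest was with Fabp7, at r = 0.67 (exact permutation p = 0.0568, adjusted p = 0.419) and rho = 0.40. That r was 0.03 after 2 libraries were left out.

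The other 8 members did not separate the libraries as Gfap did, since their values above and below its gap overlapped in all 8. In the 5 libraries above the gap, Aqp4 ran from 3.01 to 3.22, inside its span of 2.92 to 3.48 in the 9 lower ones, and Aldoc from 6.41 to 6.53, inside 6.28 to 6.73. Fabp7 ran from 9.65 to 9.80 there and from 9.37 to 9.73 in the lower ones, and Sox9 from 3.79 to 4.08 there and from 3.57 to 3.94 in the lower ones.

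Genes most like Gfap were ranked by r of deviations from group means over the 14 libraries, among 10265 genes of known symbol. Because Gfap falls into separate ranges, this r is a measure of likeness only and has no p. The 5 highest were Fam167a (0.97), Rcbtb1 (0.96), Gpr17 (0.96), Cd9 (0.95) and Inip (0.95), and 52 genes were over 0.9. For Aqp4 they were Wdr60 (0.95), R3hdm2 (0.92), Tmem150c (0.91), Sik3 (0.90) and Ptprm (0.90). For Fabp7 they were Atxn7l2 (0.96), Brd9 (0.96), Anp32b, Mea1 and Wdr55 (0.92 each). For the mean of the 9 standardised members they were Gem, Ccpg1os, Cyb5d1, Akap8l and Anks3 (0.90 to 0.88). By the same r to Gfap, Fabp7 was at 0.71, Sox9 at 0.59 and Vim at 0.52. Aldoc was at 0.07, Gja1 at 0.05, Aldh1l1 at 0.02, Aqp4 at -0.23 and S100b at -0.43.

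Gpr17, a receptor of committed oligodendrocyte precursors, was among the 8 genes with a wider spread than Gfap, and so was Bcas1, which marks oligodendrocytes that begin to myelinate. Gpr17 was at 2.43 or above in 4 libraries and at 1.28 or below in the other 10. Bcas1 was at 2.09 or above in the same 4 and at 1.14 or below in the rest. These 4 were bicuculline replicate 2, NMP peptides replicate 3, DMSO replicate 2 and PK-cleaved replicate 3, and they were also the 4 highest in Gfap, at 4.18, 4.15, 4.13 and 3.97. Bicuculline replicate 3, next in Gfap at 3.47, was at 1.08 in Gpr17 and 0.31 in Bcas1. Bcas1 was named after its values were seen. Without these 4 libraries 0 of 9 members were called in every comparison, with 1 DMSO library left, and Aldoc differed by -0.22 between NMP peptides and NMP peptides plus APV (adjusted p = 0.406).

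**Figure D4:**
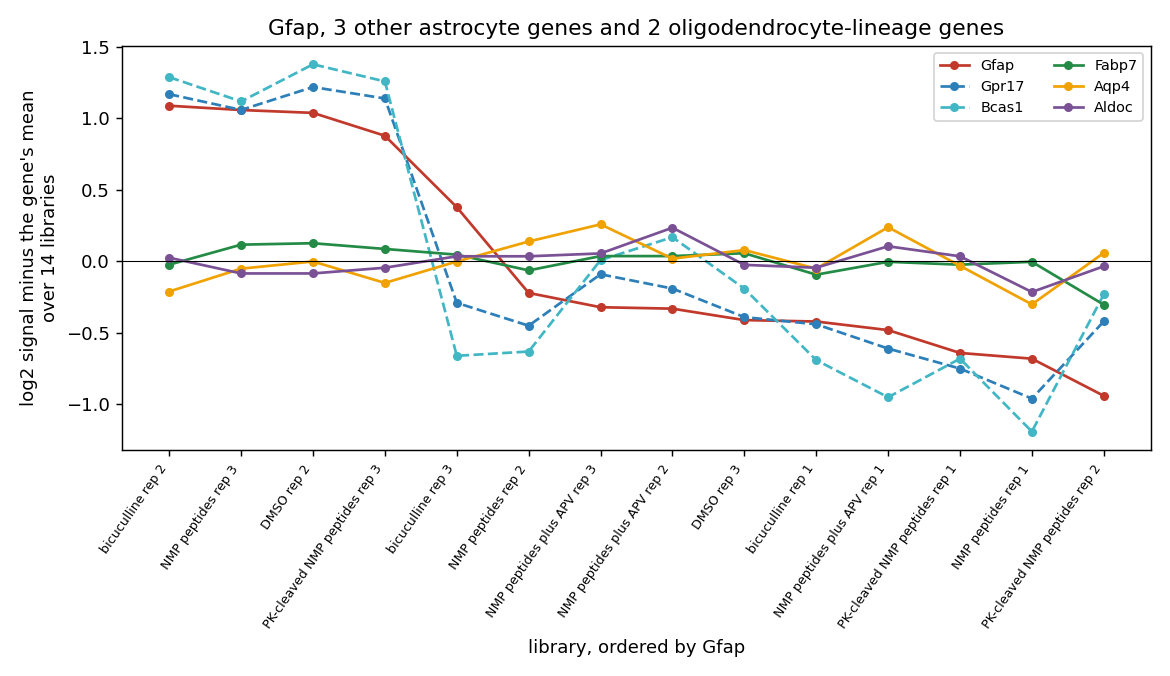
Log2 signal minus the gene's mean over 14 libraries (vertical axis) for Gfap, 3 other astrocyte genes (solid lines) and the oligodendrocyte-lineage genes Gpr17 and Bcas1 (dashed lines), with libraries ordered from high to low Gfap (horizontal axis). The lines only guide the eye. The 4 libraries with Gfap at 3.97 or above are those with Gpr17 at 2.43 or above and Bcas1 at 2.09 or above. Of these 4, DMSO replicate 2, NMP peptides replicate 3 and PK-cleaved replicate 3 hold the highest Fabp7 values of all 14 (9.80, 9.79 and 9.76). Fabp7, Aqp4 and Aldoc cover narrower ranges than Gfap, of 0.43, 0.56 and 0.45.

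A wider list of 52 astrocyte genes was read in the same way, and 45 passed the filter on low values. Those of transmitter and ion handling were high, with mean log2 signals of 7.83 for Glul (glutamine synthetase), 7.31 for the glutamate transporter Slc1a3 and 6.35 for the GABA transporter Slc6a11. Of the secreted and lipid-carrying genes Apoe was at 9.13, Sparcl1 at 8.10 and Mfge8 at 7.39. Of metabolism the metallothionein genes Mt3, Mt2 and Mt1 were at 8.29, 7.64 and 7.57. Junction and membrane genes were led by Ttyh1 at 6.84, Mlc1 at 5.78 and S1pr1 at 4.94, and the transcription factors by Nfix at 5.59, Sox2 at 5.13 and Lhx2 at 4.85. At the other end Gjb6, encoding the connexin 30 of mature astrocytes, was at -3.53. By the r of deviations from group means, the 45 genes differed widely in likeness to Gfap. The highest were Sox2 (0.85), Ntsr2 (0.81), Sparc (0.77) and S1pr1 (0.74). The lowest were Hepacam (-0.89), Glul (-0.78) and Slc39a12 (-0.71). This r has no p, and the choice was made after the values were seen. Hepacam was at 3.97 or 3.98 in the libraries with Gfap at 3.97 or above and at 4.13 or above in the rest.

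Of these 45 genes, 0 were called in 9 of the 10 comparisons. At an unadjusted p under 0.05 there were 15 in bicuculline against NMP peptides plus APV (18.7% of all tested genes), 12 in NMP peptides against NMP peptides plus APV (15.8%), 10 in NMP peptides plus APV against PK-cleaved NMP peptides (15.6%), 6 in NMP peptides plus APV against DMSO (11.5%) and 0 to 3 in the other 6 comparisons (1.05% to 3.38%). The exception was Hes5, a Notch target of radial glia, in NMP peptides plus APV against PK-cleaved NMP peptides. It was at 3.76, 3.60 and 3.52 in PK-cleaved NMP peptides and at 3.07, 2.76 and 2.53 in NMP peptides plus APV. The difference was -0.83 (SE 0.19, adjusted p = 0.0487). The call was lost in most alternatives, with an adjusted p of 0.0559 without the filter on low values and 0.189 without PK-cleaved replicate 1. The PK-cleaved libraries were also above those of every other group. DMSO was at 3.44 and 2.80, bicuculline at 2.86, 2.84 and 3.11, and NMP peptides at 2.73, 2.75 and 3.38.

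In the comparisons with APV more of the 45 genes lay higher with APV than lower. Only Hes5 passed the test, and it was lower with APV than in PK-cleaved NMP peptides. In NMP peptides plus APV against DMSO 35 differences were positive and 10 negative. Their median was 0.12, against -0.05 over all tested genes. Against PK-cleaved NMP peptides the split was again 35 and 10 and the median 0.12, against -0.02. In NMP peptides against NMP peptides plus APV 12 were positive and 33 negative (median -0.09 against 0.01), and in bicuculline against NMP peptides plus APV 13 and 32 (median -0.08 against 0.02). The 9 members were split 6 and 3, 8 and 1, 2 and 7, and 2 and 7 in these 4 comparisons. Of all tested genes, 36.3%, 45.5%, 53.5% and 55.3% were above 0 in these 4, all of which use the same 3 libraries with APV. By sublist, all 8 genes of transmitter and ion handling lay higher with APV in each of the 4, with medians of 0.17 against DMSO and 0.25 against PK-cleaved NMP peptides. Of the 9 transcription factors and Notch targets 4 lay higher and 5 lower against DMSO, with a median of -0.07. The 9 secreted and lipid-carrying genes were split into 5 above and 4 below 0 both when bicuculline and when NMP peptides were set against NMP peptides plus APV. Lists of other cells held like splits in part. In the order given for the members, 8 oligodendrocyte lineage genes were split 3 and 5, 7 and 1, 0 and 8, and 1 and 7. The 8 proliferation genes were split 6 and 2, 7 and 1, 1 and 7, and 1 and 7. The 10 neuronal genes were split 4 and 6, 4 and 6, 3 and 7, and 3 and 7. Against DMSO in the other 3 groups 22, 21 and 23 of the 45 genes were above 0 in bicuculline, NMP peptides and PK-cleaved NMP peptides, where 37.1%, 35.3% and 34.0% of all tested genes were.

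Genes of reactive astrocytes were mostly at or near the bottom of the table. Of 23 listed, 4 passed the filter: Serpina3n at 0.71, S1pr3 at 1.00, Lgals1 at 2.23 and S100a10 at 5.65. Lcn2 had a value in 4 libraries, Steap4 in 3, Timp1 and Cd14 in 8 each and Hspb1 in 11. C3 was at -5.08 and Serping1 at -3.09. The summed antilog signal of the list ran from 55.8 to 76.6 over libraries, with 59.4 to 68.8 in bicuculline and 60.1 to 72.1 in NMP peptides plus APV, and 0 genes were called. S100a10 carried most of this sum, which ran from 11.2 to 15.1 without it.

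Markers of other cells were set beside the members, and their part in the members' values was not tested. Neuronal genes were high: all 10 passed the filter, led by Tubb3 at 9.32, Snap25 at 7.48 and Syt1 at 7.05, and their summed antilog signal ran from 1184 to 1537, against 908 to 1163 for the 9 astrocyte genes. Fabp7, which is shared with radial glia, carried most of the astrocyte sum, as the antilog of its mean was 817. Gad1, of inhibitory neurons, was called, 0.45 higher in bicuculline than in NMP peptides plus APV (SE 0.11, adjusted p = 0.0449), a call lost with median centring (adjusted p = 0.0668), the replicate block (0.0800), no variance trend (0.0616) or without any 1 of 9 single libraries (0.0507 to 0.202). Of the oligodendrocyte lineage 8 of 10 passed, led by Olig1 at 6.23, Olig2 at 5.19 and Pdgfra at 3.78, while Mag was at -2.50 and Mog had a value in 4 libraries. Their sum ran from 142 to 172 in DMSO, 128 to 151 in bicuculline, 131 to 148 in NMP peptides, 141 to 144 in PK-cleaved NMP peptides and 150 to 185 in NMP peptides plus APV.

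Transcripts of progenitor and proliferation genes were also measured. Of 7 radial glia and progenitor genes 6 passed, led by Sox1 at 3.84, Nes at 3.18 and Hopx at 2.56, with a sum from 35.5 to 43.0. All 8 proliferation genes passed, led by Top2a at 2.72, Ccna2 at 2.14 and Ccnb1 at 1.99. Their sum was 25.3 to 34.5 in DMSO, 22.0 to 27.7 in bicuculline and 23.7 to 26.6 in NMP peptides. It was 24.6 to 26.5 in PK-cleaved NMP peptides and 27.7 to 38.8 in NMP peptides plus APV, where it overlapped DMSO. Of the members, Aldoc, Gja1, Aqp4 and Aldh1l1 had their highest mean with APV and Gfap its lowest. S100b, Sox9, Fabp7 and Vim had neither there. A relation of this sum to the members was not tested.

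Of 9 microglia genes 0 passed the filter, led by C1qc at -1.92, C1qb at -2.03 and C1qa at -2.09, with Cx3cr1 at -4.07 and a sum from 1.15 to 1.92. Of 8 endothelial and mural genes 1 passed, Acta2 at 0.40, followed by Pdgfrb at 0.05 and Kdr at -1.52, and Cldn5 had a value in 2 libraries. Of 6 meningeal fibroblast genes 2 passed, Dcn at 3.05 and Fn1 at 1.13, followed by Lum at -2.23, while Col1a1 was at -2.42 and Col1a2 at -3.73.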

How the data were processed

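RNA-seq signals of 14 libraries from mouse cortical cultures (paired-end, 100 bases) were taken as the authors deposited them: log2 signals, quantile-normalised between libraries, as shown by a shared median of 2.19. Base 2 was checked on the values, since antilogs times exon length in kilobases sum to 1180660 to 1266380 per library. Per the submitters' processing notes, the build is GRCm38.p6. No aligner, counter, annotation or strand setting is given in the sources used here. Read depth is unknown, and quantile normalisation hides any change of total RNA.

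Features were ranked by mean, and the lowest 40% of 18128 with a value were dropped. One mean per group was fitted with limma 3.58.1 in R 4.3.3 over all libraries (variance trend, two-sided). Adjustment was by Benjamini-Hochberg within each of 10 comparisons over 10877 genes. The procedure was tested on simulated data. The rule for named genes took all members, the differences with an unadjusted p under 0.05 or else the smallest, Gfap against DMSO throughout, 5 genes most like a member, and of every other list the 3 highest and all called genes, to which low or partly missing markers were added. The activity list served as a check and is given by its 3 highest genes, Npas4 and a count. The members, the 14 other lists and the rule were chosen with earlier results of these data known. Exon overlaps come from GENCODE genes of the same build.

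Replicate numbers were checked by the correlation of deviations from group means. The rule asked for 3 shared replicate numbers, each with r over 0.1. It paired NMP peptides with PK-cleaved NMP peptides (0.50 to 0.61), which the labels do not mention, and no other treated groups. DMSO, with 2 libraries, could not meet the rule whatever its r. Its r was 0.30 to 0.35 with NMP peptides plus APV and 0.17 to 0.54 with bicuculline. It was -0.48 to -0.34 with NMP peptides and -0.45 to -0.41 with PK-cleaved NMP peptides. Alternatives were no filter, dropping 60%, median centring, a replicate block, the compared groups alone, array weights, a fit with no variance trend, and each library left out in turn. A fit without the 4 libraries highest in Gfap was added after seeing the data. Protein sequences were not used here.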

Additional observations from a re-analysis of the deposited data

How the results depend on the processing

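In all 10 comparisons 0 of 9 members were called under each alternative. The F test also called 0 in each fit it was run in, all but the replicate block and the compared groups alone. The replicate block called 0 members and changed no call of one. Directions were followed only for the member differences picked by the rule for named genes. These have an unadjusted p under 0.05 or else the smallest, and for Gfap include all 4 against DMSO. Of 412 such values under alternatives, 403 kept their direction and side of the threshold and 9 changed sign, all of Gfap. Differences near 0 in the other members were mostly not among them, so this count does not compare Gfap with those. With array weights Gfap against DMSO was 0.10 for NMP peptides, 0.022 for PK-cleaved NMP peptides and -0.20 for bicuculline. Leaving out 1 library at a time, the bicuculline difference ranged from -0.69 to 0.77 and that of NMP peptides from -0.99 to 0.47. The PK-cleaved difference ranged from -1.28 to 0.18 and that with APV from -1.42 to 0.038. In all 4 the lowest value came without DMSO replicate 3 and the highest without DMSO replicate 2. The 45 other astrocyte genes gave 1 call with only the compared groups fitted in NMP peptides against NMP peptides plus APV, in bicuculline against PK-cleaved NMP peptides and in bicuculline against NMP peptides plus APV, where the full fit gave 0. Array weights gave 2 and 4 calls in the first and last of these and 6 in NMP peptides plus APV against PK-cleaved NMP peptides. The 1 call there, Hes5, became 0 with no filter, dropping 60%, median centring, the replicate block or no variance trend, and leaving out 1 library gave 0 to 1. Leaving out 1 library also gave 0 to 1 in bicuculline against NMP peptides plus APV. Counts over all genes moved more: bicuculline against NMP peptides plus APV gave 191 to 836 in place of 362, NMP peptides against NMP peptides plus APV 57 to 615 in place of 156, NMP peptides plus APV against DMSO 5 to 93 in place of 68 and against PK-cleaved NMP peptides 53 to 571 in place of 151. Bicuculline against NMP peptides gave 4 to 38 in place of 19, against PK-cleaved NMP peptides 44 to 88 in place of 58 and against DMSO 27 to 55 in place of 51. NMP peptides against PK-cleaved NMP peptides gave 1 to 12 in place of 9 and against DMSO 0 to 11 in place of 2, and PK-cleaved NMP peptides against DMSO 0 to 1 in place of 0. The causes were not tested. Depth is unknown, so no counting limit can be given for S100b or other low genes.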

Other observations

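In each of the 4 groups with a library at 3.97 or above in Gfap, that library had the lowest level of Egr1, an immediate-early transcription factor gene that neuronal activity induces. In DMSO, Egr1 was at 4.75 in replicate 2, which is high in Gfap, and at 5.48 in replicate 3. In bicuculline it was at 7.18 in replicate 2 and at 7.79 and 7.38 in the others. In NMP peptides it was at 5.72 in replicate 3 and at 6.33 and 6.77 in the others, and in PK-cleaved NMP peptides at 4.75 in replicate 3 and at 5.42 and 5.40 in the others. Egr1 was picked for this pattern after its values were seen.

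Plod1, which encodes a lysyl hydroxylase at chr4:147909753-147936776, also had a wider spread than Gfap and was named after its values were seen. It was between 1.86 and 2.11 in 7 libraries and between 3.48 and 3.70 in the other 7, with no library between. The 5 libraries highest in Gfap were all among the 7 low in Plod1, together with DMSO replicate 3 and NMP peptides plus APV replicate 3. Both DMSO libraries were low, at 2.04 and 1.86, and each treated group held libraries of both kinds. Txnip, a thioredoxin-binding protein gene that responds to glucose, was at 4.73 in DMSO replicate 2 and 4.62 in bicuculline replicate 2. It was at 4.24 in PK-cleaved replicate 3 and 2.89 in NMP peptides replicate 3. Each of these was the highest Txnip value of its group, and the other NMP peptide libraries were at 2.34 and 2.43. With group means removed, its r with Gfap was 0.94, a measure of likeness only.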
